A study of Homo sapiens with 4 samples.

Results

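The genes described here are 8 genes of the major histocompatibility complex (MHC) class II pathway, selected by their symbols from the 15562 genes of the deposited RNA-seq tables. They are HLA-DRA, HLA-DRB1, HLA-DPA1 and HLA-DPB1, which encode chains of the class II molecules themselves, HLA-DMA and CD74, which serve their loading with peptide, and CIITA and RFX5, which drive their transcription. The genes were picked with their hypoxia to normoxia ratios already known, so these ratios are a description and support nothing. The cells were H1975, an established human lung adenocarcinoma line labelled WT in both conditions. One RNA-seq library came from cells in normoxia and 1 from cells kept for 24 h in hypoxia (1% O2, 94% N2), out of 4 libraries in the series. Both cultures had 5% CO2, and the labels state neither the oxygen level nor the length of the normoxic culture. With 1 library per condition there was no spread between cultures, so no p-value is given, and every interval below covers counting error only, in 2 libraries and not in the conditions.

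Class II molecules are pairs of an alpha and a beta chain that carry peptides from endocytosed proteins to the cell surface, where CD4+ T cells read them. CD74, the invariant chain, fills the groove of the new pair until the peptide exchange factor HLA-DM, of which HLA-DMA is the alpha chain, replaces its last fragment. Transcription needs CIITA, a coactivator that does not bind DNA itself but docks on RFX5 and its partners at the X and Y boxes of the promoters. Professional antigen-presenting cells express the pathway at high levels, alveolar type II cells of the lung epithelium also carry class II, and interferon gamma induces CIITA in many other cells.

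Stretches of 4 class II gene promoters show letters of the boxes named above. They were taken from RefSeq promoter sequences of GRCh38.p14, which cover 250 bases before to 50 after a start site and held 9 promoters for 6 of the 8 genes (HLA-DPA1, HLA-DPB1, HLA-DRB1, HLA-DMA, CD74 and RFX5). Each stretch is written 5′ to 3′ in the direction of transcription. Capitals mark CCAAT or its reverse complement ATTGG (the letters of the Y box), TGATGA and AGCAAC (letters of the X box region).
HLA-DPB1 (chr6:33075831-33075920, + strand): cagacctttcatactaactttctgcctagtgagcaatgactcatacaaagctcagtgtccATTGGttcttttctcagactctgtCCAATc
HLA-DRB1 (chr6:32589865-32589954, - strand): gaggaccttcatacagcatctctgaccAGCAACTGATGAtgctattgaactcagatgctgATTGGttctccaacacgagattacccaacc
HLA-DMA (chr6:32953147-32953236, - strand): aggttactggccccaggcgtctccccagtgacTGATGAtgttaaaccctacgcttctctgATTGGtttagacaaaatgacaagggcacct
CD74 (chr5:150412934-150413023, - strand): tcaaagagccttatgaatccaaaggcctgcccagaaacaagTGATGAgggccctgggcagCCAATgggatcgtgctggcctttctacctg

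Searched on both strands, CCAAT lay in 5 of the 9 promoters, from 5 genes, and in 34.6% of all 35116 promoters of the same length. In HLA-DRB1 and HLA-DMA, TGATGA started 27 and 28 bases before ATTGG, and in CD74 it started 19 bases before CCAAT. A search chosen after the sequences were seen, for TGATGA on the coding strand followed within 40 bases by CCAAT or ATTGG, found the pair in 3 of the 9 promoters and in 0.362% of all promoters. AGCAAC was in 5 of the 9 promoters, from 4 genes (12.8% of all promoters). TGACG, core letters of the cyclic AMP response element, was in 5, from 3 genes (24.6% of all). Promoters of RFX5 partly overlap, so a site there can be counted more than once, and the shares are not tests. The core letters of the hypoxia response element, ACGTG and GCGTG, were in 3 and 1 of the 9 (21.4% and 36.5% of all). ACGTG was in promoters of HLA-DPA1 and RFX5 and GCGTG in 1 of HLA-DPA1. Motifs may overlap, and a match describes letters, not a bound site.

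Per length, the class II genes in the normoxia library ran from a close group at the top down to HLA-DRB1, with wide steps below that group. The top group held HLA-DMA at 31.9 FPKM (fragments normalised by the authors for gene length and library total, with exact Poisson 95% interval 29.5 to 34.6), CD74 at 31.9 (30.5 to 33.4) and RFX5 at 30.5 (29.1 to 31.8). Their intervals overlapped, so their order was not resolved, and each exceeded the FPKM of 84.7% or more of all genes. Below that group came HLA-DRA at 6.93 (5.87 to 8.13), 4.60-fold below CD74, followed by HLA-DPA1 at 2.46 (1.94 to 3.08). CIITA at 0.496 (0.424 to 0.576) and HLA-DPB1 at 0.426 (0.287 to 0.608) came next and overlapped. HLA-DRB1 was last at 0.0463 (0.00117 to 0.258). In hypoxia the order was the same, and the same neighbours overlapped. There HLA-DMA stood at 33.6 FPKM, CD74 at 32.4, RFX5 at 30.9, HLA-DRA at 9.11 (7.92 to 10.4) and HLA-DPA1 at 3.26 (2.67 to 3.93). CIITA stood at 0.672 (0.591 to 0.761), HLA-DPB1 at 0.608 (0.446 to 0.812) and HLA-DRB1 at 0.173 (0.0470 to 0.442). The FPKM intervals of each gene overlapped between the libraries, except that those of CIITA did not. CD74 and HLA-DMA were thus more abundant per length than the 4 chain genes in both libraries, while HLA-DMB, which encodes the other chain of HLA-DM, stood at 2.19 and 2.47 FPKM, below HLA-DRA.

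**Figure D1:**
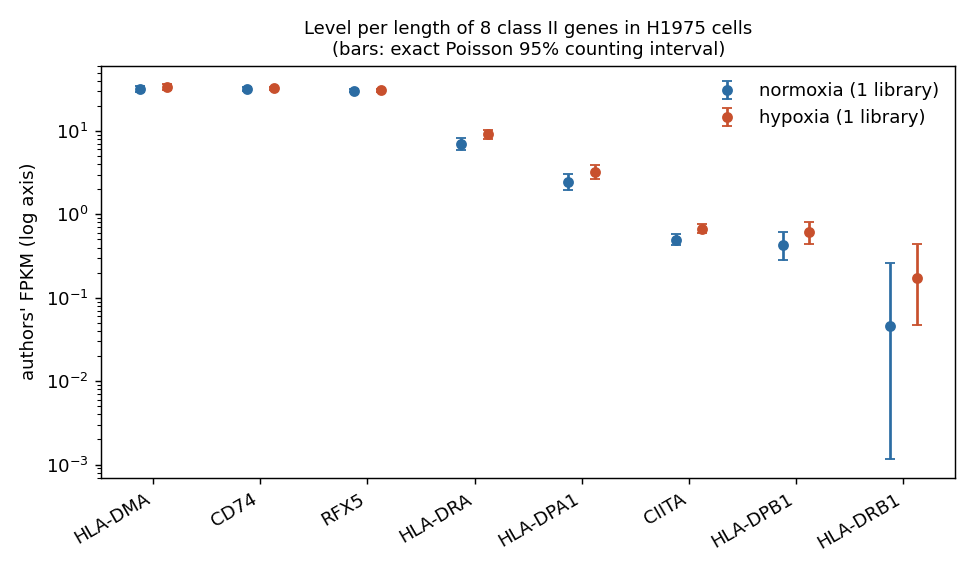
The authors' FPKM (vertical, log axis) of the 8 class II genes in the normoxia (blue) and hypoxia (orange) library, with exact Poisson 95% counting intervals as bars. HLA-DMA, CD74 and RFX5 sit near 30 to 34 FPKM in both libraries and the other 5 genes below 10.

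The antigen-presenting chains had few reads in both libraries and more of them in hypoxia. HLA-DRA (Entrez 3122, GRCh38.p14 chromosome 6, 32439887 to 32445046), the single DR alpha chain, had 151 counts in normoxia and 213 in hypoxia. After scaling by TMM, edgeR's trimmed mean normalisation, its log2 ratio of hypoxia to normoxia was 0.40 (95% counting interval 0.10 to 0.71), a ratio of 1.32, and its interval lay wholly above 0. In RNA from whole cultures, more cells with class II transcripts and more transcripts per cell cannot be told apart. HLA-DPA1 (Entrez 3113, chromosome 6, 33064569 to 33080748), the DP alpha chain, had 76 and 108 counts, a log2 ratio of 0.41 (-0.02 to 0.86). HLA-DPB1 (Entrez 3115, chromosome 6, 33075990 to 33089696), the DP beta chain, had 30 and 46 counts, a log2 ratio of 0.52 (-0.17 to 1.24). Both DP values lay above 0 with intervals that still held 0, so this depth could not show a difference. The spans of the 2 DP genes overlap over 4759 bases on opposite strands. The library kit keeps strand, but the strand setting of the counting is not stated, so the split of reads between them is uncertain.

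HLA-DRB1 (Entrez 3123, chromosome 6, 32578775 to 32589848), a DR beta chain, had 1 count in normoxia and 4 in hypoxia. Its log2 ratio of 1.91 has an interval from -1.43 to 7.53, far too wide to show a difference. It was the only one of the 8 genes below a scaled CPM (counts normalised to the scaled library total) of 1 in both libraries, the level used to enter a gene in counts over all genes. The related DR beta gene HLA-DRB5 had 2 and 6 counts. DR beta genes are highly polymorphic, and how reads that fit several of them were counted is not stated, so both values are uncertain. Together the 4 chain genes had 258 counts in normoxia and 371 in hypoxia.

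The loading factors were well counted and differed little. CD74 (Entrez 972, chromosome 5, 150401639 to 150412910) had 1918 counts in normoxia and 2092 in hypoxia, a log2 ratio of 0.03 (-0.06 to 0.12), so the ratio of 1.02 had counting bounds of 0.961 and 1.09. HLA-DMA (Entrez 3108, chromosome 6, 32948618 to 32953097) had 616 and 695 counts, a log2 ratio of 0.08 (-0.08 to 0.24). Both intervals held 0 and were narrow.

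The regulators split in the same way. CIITA (Entrez 4261, chromosome 16, 10866206 to 10943021) had 171 counts in normoxia and 249 in hypoxia, a log2 ratio of 0.45 (0.16 to 0.74) and a ratio of 1.36. Its interval lay above 0. RFX5 (Entrez 5993, chromosome 1, 151340640 to 151347252), the DNA-binding subunit of the RFX complex, had 2073 and 2262 counts, a log2 ratio of 0.03 (-0.05 to 0.12). The FPKM of CIITA rest on a gene length of 19560 bases, the longest of the 8. The span of CIITA overlaps that of DEXI over 13578 bases, and here too the strand setting of the counting is not stated. DEXI had 610 counts in normoxia and 585 in hypoxia, a log2 ratio of -0.15 (-0.32 to 0.01). The split of reads between CIITA and DEXI was not tested.

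**Figure D2:**
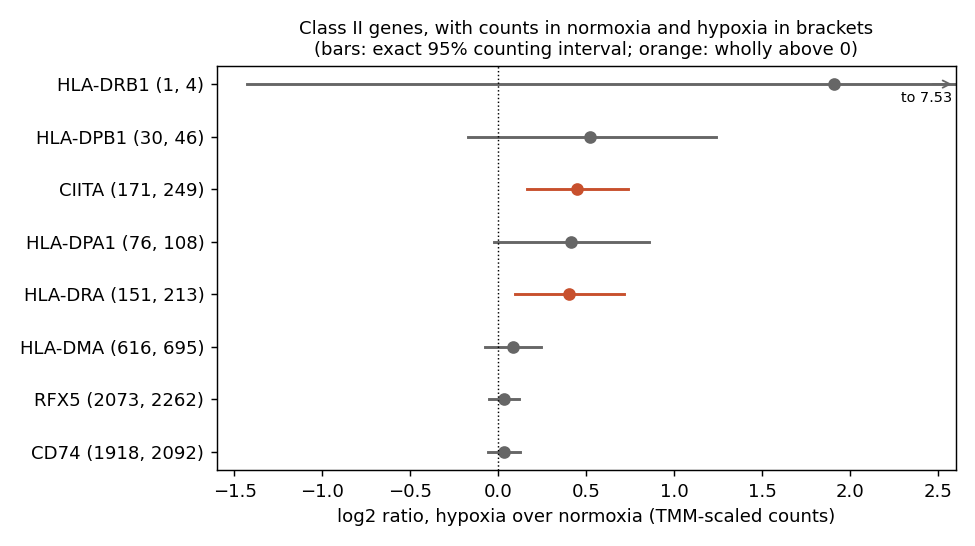
Log2 ratio of hypoxia to normoxia (horizontal, TMM-scaled counts) of each class II gene, with its counts in normoxia and hypoxia in brackets and exact 95% counting intervals as bars. The intervals of CIITA and HLA-DRA lie wholly above 0, those of the other 6 hold 0, and that of HLA-DRB1 runs past the axis to 7.53.

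Of the 7 class II genes at a scaled CPM of 1 or more, all 7 had a log2 ratio above 0 and 0 below, against 50.7% and 49.3% of the 12725 genes tested. The interval of 2 lay wholly above 0 and of 0 wholly below it, against 15% and 14% of genes tested. None passed a 2-fold difference, which 0.472% of genes passed upward and 0.44% downward. The median log2 ratio was 0.40 over the 7 genes and 0.41 over all 8, against 0.00 over all genes tested. That median falls on HLA-DRA and stands for only some of the genes: 3 genes lay between 0.03 and 0.08 and 4 between 0.40 and 0.52. Without the overlapping pair HLA-DPA1 and HLA-DPB1, left out after the data were seen, the median of the remaining 5 was 0.08.

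The higher ratios belonged to the genes with fewer reads, where ratios of all genes scatter more: the SD of the log2 ratio was 0.225 among genes of similar count to CIITA and 0.127 among those of similar count to RFX5. Among the 3140 genes with between 210 and 840 counts in total, 2.36% had a log2 ratio as high as that of CIITA, and 10.1% had an interval above 0. For HLA-DRA, 4.63% of 2872 genes with 182 to 728 counts were as high. HLA-DPA1 was matched or exceeded by 8.91% of 1818 genes of similar count, and HLA-DPB1 by 10.9% of 1358. CD74 and RFX5 lay near the middle, with 39.4% and 39.0% of genes of similar count as high. These shares describe other genes in the same pair of libraries and are not tests.

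**Figure D3:**
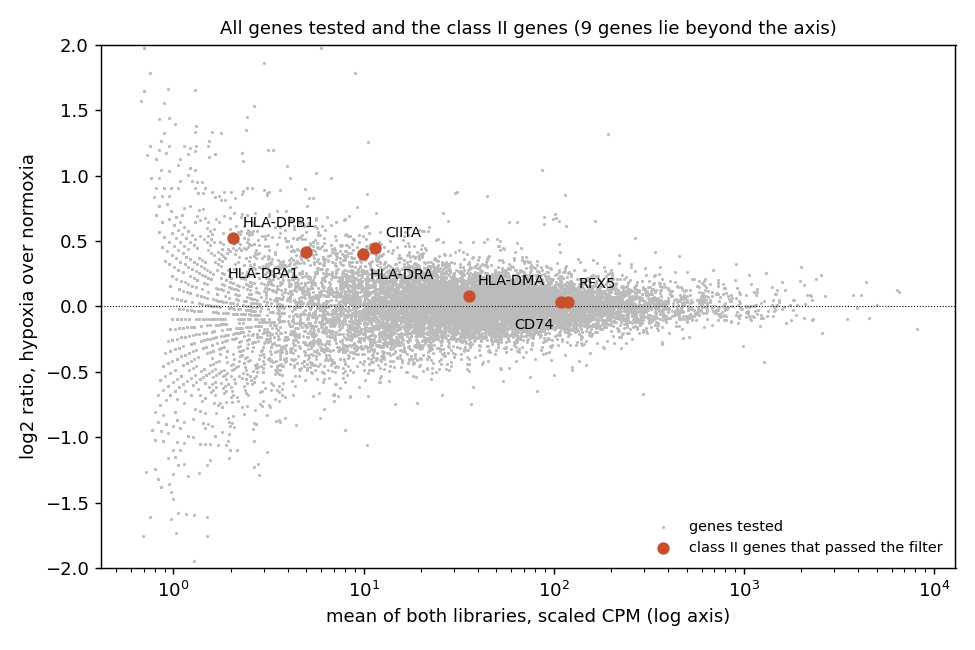
Log2 ratio of hypoxia to normoxia (vertical) against the mean scaled CPM of both libraries (horizontal, log axis) for the genes tested (grey, Y-linked genes and XIST left out) and the 7 class II genes that passed the filter (orange). CIITA, HLA-DRA, HLA-DPA1 and HLA-DPB1 lie between 0.40 and 0.52 on the left, where the grey points spread widely, and HLA-DMA, CD74 and RFX5 near 0.

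Setting each gene against CD74 in the same 2 libraries needs no scaling but uses the same counts. Since the ratio of CD74 itself was 1.02, the values must lie close to the ratios above and add no support to them. Relative to CD74, CIITA was 1.33-fold higher in hypoxia (exact conditional 95% interval 1.08 to 1.65) and HLA-DRA 1.29-fold (1.03 to 1.62). HLA-DPA1 was at 1.30 (0.956 to 1.78) and HLA-DPB1 at 1.41 (0.864 to 2.32), both with intervals that held 1. HLA-DMA was at 1.03 (0.911 to 1.17) and RFX5 at 1.00 (0.917 to 1.09). CD74 exceeded HLA-DRA in FPKM by 4.60-fold in normoxia and 3.56-fold in hypoxia.

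Of the remaining class II chain and exchange genes on the list of related genes, 5 of 14 were in the table and 1 passed the filter. HLA-DMB, the partner chain of HLA-DMA, had 52 counts in normoxia and 63 in hypoxia, a log2 ratio of 0.18 (-0.37 to 0.74). HLA-DOA and HLA-DOB, chains of HLA-DO, which restrains HLA-DM, had 1 or 2 counts in each library, and HLA-DQA2 had 0 and 1. The DQ genes HLA-DQA1 and HLA-DQB1 were not analysed here. Of these 5 genes in the table, all but HLA-DMB had too few counts at this depth to compare the libraries.

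The 5 genes with values that lie between HLA-DRA and HLA-DPB1 on chromosome 6 but belong to other pathways did not share the higher ratios. Their median log2 ratio was -0.03. PSMB8, a subunit of the immunoproteasome, was highest at 0.01 (-0.08 to 0.11), and TAP2, a subunit of the peptide transporter for class I loading, was lowest at -0.13 (-0.20 to -0.05). HLA-DMA, in the same interval, was at 0.08.

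The partners of CIITA and RFX5 at the promoter are subunits of the RFX and NF-Y complexes, CREB family factors and chromatin cofactors. All 19 passed the filter, with a median log2 ratio of -0.01. The interval of 5 lay above 0 and of 2 below, against 15% and 14% of all genes tested. RFXANK and RFXAP, the other subunits of the RFX complex, had log2 ratios of -0.08 (-0.19 to 0.04) and -0.38 (-0.89 to 0.14), the last being the lowest of the list on 73 and 60 counts. NFYC, a subunit of NF-Y that binds the Y box, was highest at 0.24 (0.09 to 0.40), and NFYA was at 0.16 (0.04 to 0.28). EP300 and CREBBP, histone acetyltransferases that CIITA recruits, were at 0.20 (0.11 to 0.30) and 0.13 (0.04 to 0.22).

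On the interferon gamma route to CIITA, 13 of 14 genes passed the filter and the median was 0.06. The interval of 4 lay above 0, among them IFNGR1 at 0.18 (0.03 to 0.34), SOCS3 at 0.15 (0.03 to 0.28) and JAK1 at 0.12 (0.04 to 0.20). The interval of 1, MYC, lay below 0 at -0.30 (-0.33 to -0.27). Over all genes tested, 15% of intervals lay above 0 and 14% below. IRF1, which activates CIITA after interferon gamma, had 649 counts in normoxia and 639 in hypoxia, a log2 ratio of -0.12 (-0.28 to 0.04). Among 26 interferon response genes 24 passed, with a median of 0.05. Of their intervals 9 lay above 0 and 2 below, against 15% and 14% of all genes tested. Those above 0 included OAS2 at 0.39 (0.11 to 0.67) and STAT2 at 0.32 (0.21 to 0.42). Those below 0 were IFIT1 at -0.16 (-0.28 to -0.04) and BST2 at -0.11 (-0.16 to -0.06). IFI44L was highest at 0.47 (-0.12 to 1.07) and GBP1, a gene strongly induced by interferon gamma, lowest at -0.21 (-0.54 to 0.12). IDO1 and CXCL10, 2 further targets of interferon gamma, had at most 6 counts in a library.

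The endosomal compartment in which class II molecules are loaded had a median log2 ratio of 0.00 over 22 of 23 genes. Of their intervals 5 lay above 0 and 5 below, against 15% and 14% of all genes tested. The cathepsin CTSL, a protease able to cut CD74, was highest, with 3384 counts in normoxia and 4746 in hypoxia and a log2 ratio of 0.40 (0.33 to 0.46). The cathepsin CTSS, which trims CD74 in antigen-presenting cells, was lowest on 26 and 13 counts, a log2 ratio of -1.09 (-2.18 to -0.08), and it passed the 2-fold rule. IFI30, the thiol reductase of the compartment, was at 0.00 (-0.08 to 0.08). The deposited annotation lists 90 genes, 6 of them described here, under presentation of exogenous peptide by class II, mostly trafficking genes. The other 84, taken up after the data were seen, gave 76 tested genes with a median of 0.00, from CTSS to KIF26A at 0.68. Of their intervals 15 lay above 0 and 11 below, beside the same 15% and 14% of all genes tested.

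Among the MHC class I genes, whose products present peptides from the cytosol, levels ranged widely: B2M stood at 826.6 FPKM in normoxia, HLA-B at 151.5 and HLA-F at 3.21. Their median log2 ratio was 0.00 over 18 genes, from HLA-F at -0.20 to ERAP1, which trims class I peptides, at 0.19. Of the 18 intervals 4 lay above 0 and 5 below, against 15% and 14% of all genes tested. HLA-B was at -0.17 (-0.24 to -0.11) and HLA-C at -0.17 (-0.25 to -0.08), while HLA-DRA was at 0.40. NLRC5, the class I counterpart of CIITA, had 965 and 1001 counts and a log2 ratio of -0.04 (-0.17 to 0.09). Of 6 genes of the CD74 ligand and its partners 3 passed the filter, of which MIF was lowest at -0.15 (-0.19 to -0.12) and CD44 highest at 0.11 (0.07 to 0.14). Of 10 costimulation and counter-receptor genes 5 passed, with a median of 0.01, from CD274 at -0.33 (-0.76 to 0.10) to LAG3 at 0.34 (-0.49 to 1.18).

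**Figure D4:**
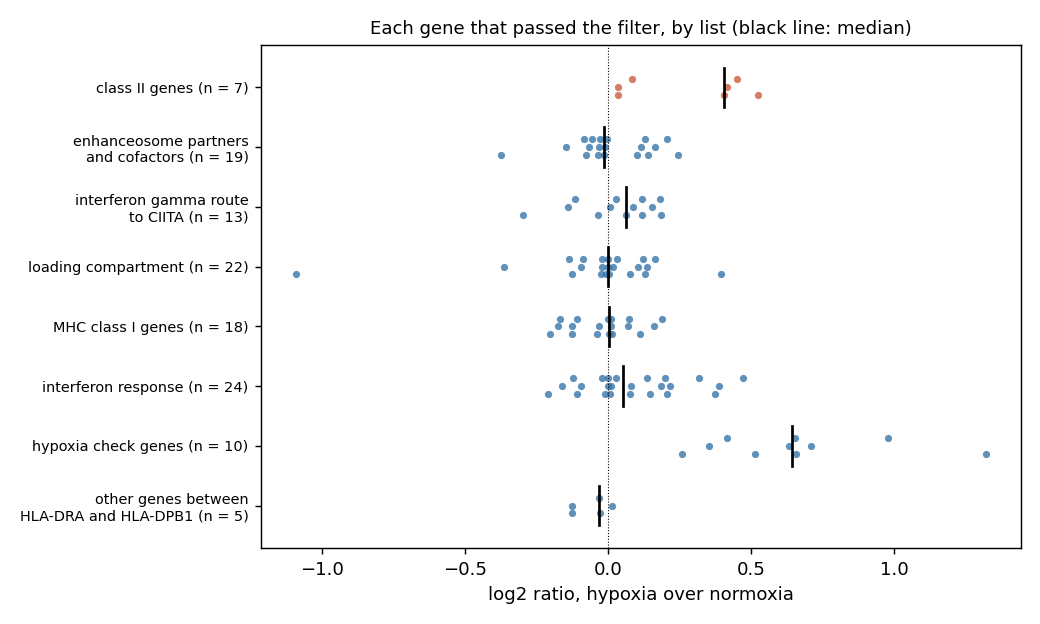
Log2 ratio of hypoxia to normoxia (horizontal) of each gene that passed the filter, by list (rows), with the median of each list as a black line. The class II genes fall into a group of 3 near 0 and a group of 4 between 0.40 and 0.52, while the medians of the other lists plotted, hypoxia check genes aside, lie between -0.03 and 0.06.

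Genes known to respond to hypoxia went in the direction of the labels. All 10 checked had log2 ratios above 0, from 0.26 (-0.10 to 0.62) for ADM to 1.32 for NDRG1. The intervals of 9 lay above 0, against 15% of all genes tested, and that of ADM held 0. Of the 10, only NDRG1 passed the 2-fold rule. Total counts were 17643836 in normoxia and 18943320 in hypoxia. The epithelial keratins KRT7, KRT8, KRT18 and KRT19, EPCAM and the lung factor NKX2-1 were abundant in both libraries (NKX2-1, the lowest, at 32.4 and 34.8 FPKM). Markers of alveolar type II cells were mixed. The surfactant genes SFTPA1, SFTPB, SFTPC and SFTPD had 2 to 14 counts. On the same list ABCA3 had 2216 counts in normoxia and 2204 in hypoxia, NAPSA 90 and 106, and LAMP3 14 and 17. Of the 11 epithelial markers that passed, SLC34A2 was highest at a log2 ratio of 0.56 and KRT7 lowest at -0.42. PTPRC, carried by all leukocytes, had 0 counts in normoxia and 2 in hypoxia. Of 7 B cell markers 6 were in the table, summing to a scaled CPM of 6.55 in normoxia and 3.81 in hypoxia, with CD79A at -0.90 (-1.53 to -0.29) and CD22 at -0.25, the highest of the 3 that passed the filter. Of 17 markers of monocytes, macrophages and dendritic cells 7 were in the table, summing to 248.8 and 247.9, most of it CD68. Among them CSF1R had 116 and 182 counts and a log2 ratio of 0.56 (0.21 to 0.91), while CD14 was at -0.44 (-0.66 to -0.23). Of 12 leukocyte and T cell markers 8 were in the table, summing to 7.96 and 7.52, and the 3 that passed the filter ran from CORO1A at -0.46 (-0.94 to 0.01) to LAPTM5 at 0.52 (-0.42 to 1.49). The part of these markers in the class II values was not tested.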

How the data were processed

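RNA-seq of 2 libraries was used, and the miRNA-seq libraries were not used here. Per the labels' protocols, TRIzol RNA went into a stranded mRNA kit. Tools listed in the submitters' processing notes are HTSeq, HISAT2, Trimmomatic, Bowtie and Cufflinks, with no roles, and the build is GRCh38. The authors deposited whole-number read counts per gene and FPKM. The deposited FPKM equalled counts divided by the table total and a gene length, whole within 0.01 bases for 100% of genes.

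Counts were scaled with TMM (edgeR 4.0.16, R 4.3.3). Ratios carry exact conditional (Clopper-Pearson) 95% intervals, computed with scipy 1.17.1, numpy 2.4.6 and pandas 2.3.3 in Python 3.11.15, and checked on simulated data. The simulated counts were independent Poisson draws, which is what the intervals assume. That check covers the computation only, not duplicate reads or spread between cultures. Figures were drawn with matplotlib 3.10.9. A gene was tested where either library reached a scaled CPM of 1. The limit that a count of 0 allows was set at 3 counts. One count equals a CPM of 0.0565 in normoxia and 0.0530 in hypoxia. No molecular identifiers are mentioned, so reads need not be independent molecules, and intervals cover counting error only.

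The 8 genes and all lists were chosen with earlier results of these data known. Named were all 8 genes, the highest and lowest of each list, and any measured gene of the class II, enhanceosome and interferon gamma lists. Genes at 0 in both libraries were also to be named. All 15562 genes in the deposited tables had a count in at least 1 library, so this rule could name none. Other names (in the class I, interferon response, marker and loading lists) were chosen after their values were seen. Some genes of these lists are not reported here by name. Entrez identifiers were matched to a RefSeq table of GRCh38.p14. Endothelial markers had a median log2 ratio of 0.10 over 2 genes (PECAM1 0.64, CDH5 -0.45) and fibroblast markers 0.10 over 6, from DCN at -0.39 to COL3A1 at 1.17.

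Alternatives were scaling by total counts, by the upper quartile or by DESeq2 1.42.0 size factors, FPKM with a pseudocount of 1 or 0.1, a length trend removed with lowess (statsmodels 0.14.6), no filter, a CPM of 5 and a 99% interval.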

Additional observations from a re-analysis of the deposited data

How the results depend on the processing

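Over DESeq2 size factors, total counts, upper quartile scaling and removal of the length trend, the 8 class II genes and their median kept their direction, and each of 31 results per setting stayed within its counting interval (list and gene values) or within 1.5 times (numbers of genes). List medians near 0 changed sign there: the loading compartment (-0.0011) was 0.0002 with DESeq2 size factors and 0.0356 with the length trend removed, class I (0.0010) was -0.0088 with total counts and -0.0013 with the upper quartile, costimulation (0.0083) was -0.0015 with total counts, and the CD74 partners (-0.0607) were 0.0020 with the length trend removed. The interval of HLA-DRA lay above 0 under all 6 scaling, FPKM and length alternatives and that of CIITA under 5. With a pseudocount of 1 on the FPKM the log2 ratio of CIITA was 0.16, and 1 class II gene in place of 2 had an interval above 0. By construction a pseudocount shrinks the ratio of a gene this low while its interval keeps its width, so this change says nothing about CIITA, and the numbers of genes with pseudocounts carry the same limit. With the length trend removed HLA-DPA1 also had an interval above 0. The median of the class II genes moved to 0.0814 without HLA-DPA1 and HLA-DPB1, an alternative added after seeing the data. The comparison with CD74, also added then, gave 2 genes, but it restates the same counts and is no independent check. At a CPM of 5, 6 class II genes passed, HLA-DPA1 through its hypoxia value alone.

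Over all genes, 60 passed the 2-fold rule upward and 56 downward. These numbers were 6 and 0 with FPKM and a pseudocount of 1, 23 and 14 with 0.1, 100 and 104 with no filter, 7 and 1 at a CPM of 5, and 38 and 33 with a 99% interval. Intervals above 0 (1903) numbered 1225 with a pseudocount of 1 and 1187 with a 99% interval, where those below 0 (1787) numbered 1095. No paired analysis was possible because each condition had 1 library. Depth limits HLA-DRB1 and HLA-DPB1 most.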
